A study of Mus musculus with 12 samples.

Results

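The transcripts of 10 glycolysis genes (Hk1, Hk2, Pfkl, Pfkp, Pfkfb3, Aldoa, Pgk1, Eno1, Pkm and Ldha) were followed in mouse colonic epithelium. They were chosen by name, as enzymes and regulators of glycolysis, out of 46517 genes listed and 12522 tested, and all 10 passed the filter on low counts. The cells were intestinal epithelial cells from the colon of C57BL/6 mice aged 7 to 9 weeks. Wild-type (WT) mice and mice of the genotype Nfkb2-/- (knockout, KO) were left untreated or received dextran sulfate sodium (DSS), which injures the colonic epithelium, for 48 h. This gave 4 groups of 3 biological replicates: untreated WT, DSS-treated WT, untreated KO and DSS-treated KO. Nfkb2 encodes a precursor and subunit of the transcription factor NF-kB. The labels name no driver or cell type for the deletion, so it cannot be read as restricted to the epithelium. RNA came from EDTA-detached cells, about 90% of which were typically EpCAM-positive epithelium by flow cytometry, per the labels.

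Glycolysis splits glucose into pyruvate and yields ATP and NADH. Hexokinases trap glucose in the cell, phosphofructokinase commits it to the pathway, and aldolase splits the sugar. The later enzymes that end with pyruvate kinase harvest energy, and lactate dehydrogenase turns pyruvate into lactate. Several of these genes are textbook targets of the hypoxia-inducible factor HIF. The healthy colonic epithelium, which borders a poorly oxygenated lumen, draws much of its energy from oxidising butyrate made by bacteria.

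Libraries held 5595909 to 8117740 counts, and 15738 to 17120 genes had a count in a sample. Reads of Nfkb2 itself numbered 211 to 346 a sample for WT and 87 to 143 for KO, lower in each KO sample than in any WT sample. All 8 epithelial markers were detected, with levels in CPM (read counts scaled to a common library size with edgeR's TMM factors). They summed to 24692 to 33096 CPM in untreated WT, 25481 to 26609 in DSS-treated WT, 25212 to 26753 in untreated KO and 21735 to 23472 in DSS-treated KO, the last below every other group. All 19 leukocyte markers were detected too. Their summed level was 19.5 to 43.1 CPM in untreated WT, 71.5 to 82.6 in DSS-treated WT, 85.1 to 104 in untreated KO and 144 to 199 in DSS-treated KO. The 8 colonocyte markers summed to 9793 to 11061, 3326 to 3672, 6437 to 7001 and 3522 to 4154 CPM in the same order, and the 7 goblet cell markers to 18849 to 29947, 15164 to 17514, 13779 to 15157 and 26746 to 30690 CPM. The 8 crypt and proliferation markers summed to 429 to 658, 348 to 386, 597 to 674 and 386 to 409 CPM. A sum follows its most abundant members, and single markers did not all go with it. Between untreated genotypes 2 colonocyte markers were called higher and 2 lower in KO (median log2 difference -0.08). For goblet markers this was 0 higher and 2 lower (median 0.16). Under DSS 4 colonocyte markers were called higher and 0 lower (median 0.43), and 3 goblet markers higher and 0 lower (median 0.42). These marker levels differed along with both comparisons made here, and their part in the values below was not tested. In such bulk RNA, fewer cells of a type and less RNA per cell cannot be told apart. Library numbers run in sequence by genotype, so the order of libraries cannot be told apart from genotype either.

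Ranked by mean level per kilobase of merged exons over the 12 samples, Ldha was the most abundant of the 10 transcripts at 832 CPM per kilobase (643 to 1208). Aldoa followed at 585 (511 to 719), then Pkm at 273 (228 to 308), Eno1 at 186 (155 to 229) and Pgk1 at 155 (134 to 187). The hexokinases and phosphofructokinases lay lower on this scale, with Pfkl at 46.2 (37.2 to 55.7), Hk2 at 31.3 (24.4 to 41.9), Hk1 at 28.1 (22.8 to 35.9) and Pfkp at 26.6 (19.6 to 31.4). Pfkfb3 was at 0.734 (0.307 to 1.17), which rested on 19 to 58 counts a sample. Neighbours in this order had overlapping ranges over samples, except that Aldoa lay above Pkm, Pgk1 above Pfkl and Pfkp above Pfkfb3 without overlap.

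The 10 transcripts together took 0.944% ± 0.106 (SD, n = 3) of the scaled reads in untreated WT, 0.853% ± 0.00806 in DSS-treated WT, 0.803% ± 0.0307 in untreated KO and 0.707% ± 0.0255 in DSS-treated KO. The sum was highest in untreated WT 1 at 1.05% and lowest in DSS-treated KO 3 at 0.679%. Each KO sample lay below all 6 WT samples. Ldha alone made up 30.4 to 38.0% of this sum. These sums and the ratios given further on were chosen after the counts had been seen and were not tested.

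The clearest difference lay between genotypes. Averaged over the untreated and DSS states, a contrast added after the data had been seen, 5 of the 10 transcripts were lower in KO, none was higher, and all 10 estimates were negative (median log2 difference -0.29, against 0.0037 over all genes tested). Of all genes tested, 5.95% passed in this contrast, and 2.88% passed with a lower level in KO. The 5 were Pfkp, Aldoa, Ldha, Hk1 and Pgk1, of which Pfkp, Aldoa and Ldha also passed in each of the 12 fits that left out 1 library. Pfkp was lower by a log2 difference of -0.43 (SE 0.06, edgeR adjusted p = 0.000812), Ldha of -0.33 (SE 0.07, adjusted p = 0.0105) and Aldoa of -0.30 (SE 0.06, adjusted p = 0.00645). As percentages of the WT level, these are changes of -25.6%, -20.6% and -18.9%. Of all genes tested, 0.91% were lower in every KO sample than in every WT sample, and 2 of the 10 transcripts, Pfkp and Aldoa, were among them. In the same contrast 2 of 8 epithelial markers were called lower and 0 higher, with a median log2 difference of -0.19 (-0.23 under DSS). Of 13 tested leukocyte markers 7 were called higher and 1 lower in KO (median 1.95), and of 8 colonocyte markers 2 higher and 2 lower (median 0.12). The part of these markers in the transcripts' difference was not tested.

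**Figure D1:**
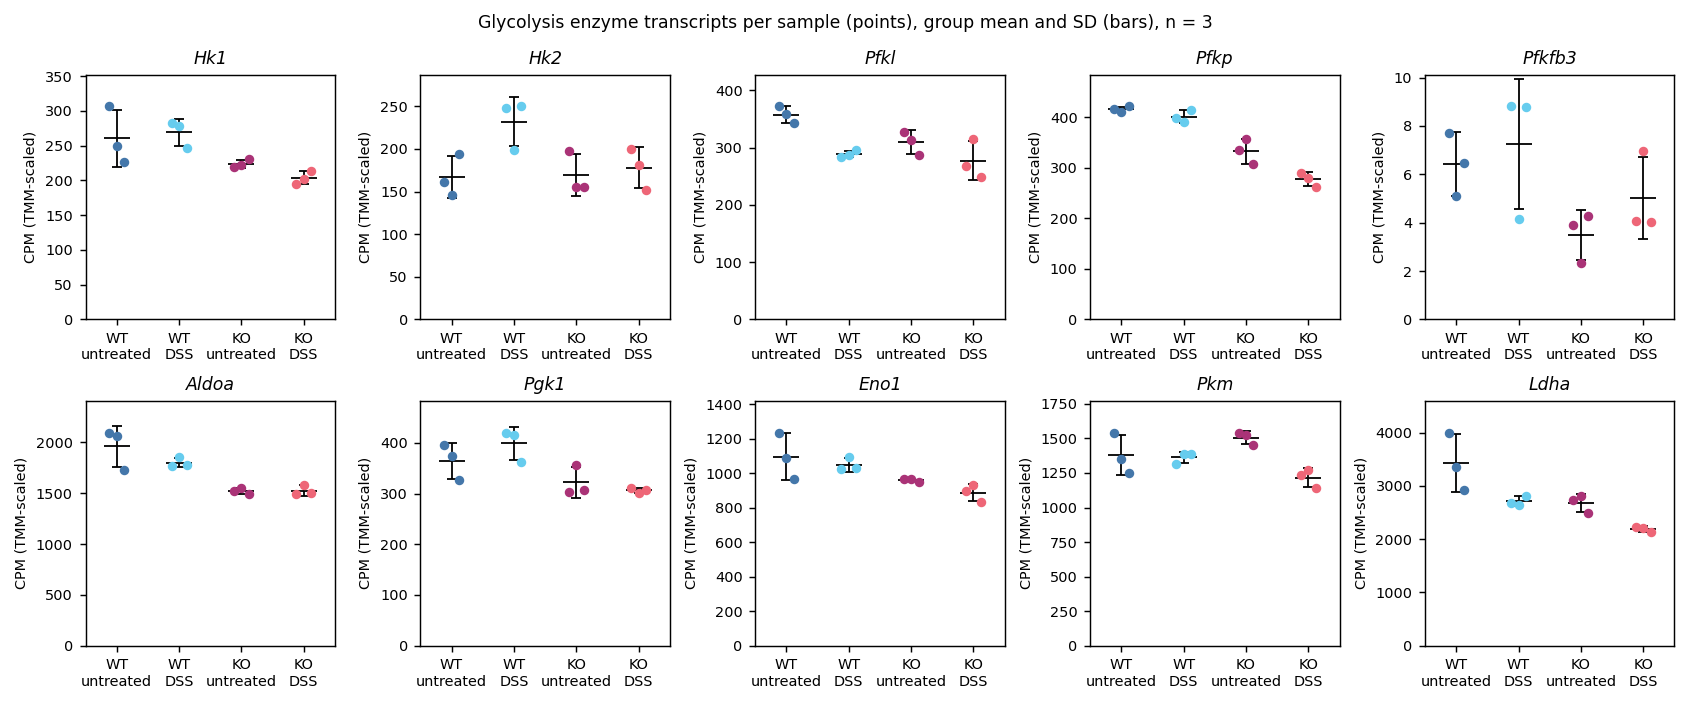
Level of each of the 10 transcripts in CPM (TMM-scaled, linear axis from 0) by group. Points are single samples, horizontal bars the mean and vertical bars the SD of 3 samples. Pfkp in KO (263 to 356 CPM) and Aldoa in KO (1488 to 1585 CPM) lie below all WT samples, whereas for Pkm and Hk2 the ranges of the 6 KO and the 6 WT samples overlap.

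The promoters of these 3 genes are shown because their transcripts were the ones that passed between genotypes in every fit with a library left out. The windows come from RefSeq (GRCm38.p6), run 5′ to 3′ from 250 bases before an annotated start to 50 bases from it on, and capitals mark ACGTG and GCGTG, the core words bound by HIF, on either strand (CACGT and CACGC are their reverse complements). Aldoa has 3 such windows and Ldha 2. Which start the colon uses was not measured, and each window shown for these genes is one that holds ACGTG.
Pfkp, chr13:6648722-6649021, minus strand: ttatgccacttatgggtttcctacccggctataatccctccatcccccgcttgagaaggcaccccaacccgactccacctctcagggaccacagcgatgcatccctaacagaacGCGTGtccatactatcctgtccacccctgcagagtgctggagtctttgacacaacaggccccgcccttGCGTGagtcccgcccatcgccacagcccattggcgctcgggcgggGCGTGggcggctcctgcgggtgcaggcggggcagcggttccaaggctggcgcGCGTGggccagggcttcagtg
Aldoa, chr7:126799205-126799504, minus strand: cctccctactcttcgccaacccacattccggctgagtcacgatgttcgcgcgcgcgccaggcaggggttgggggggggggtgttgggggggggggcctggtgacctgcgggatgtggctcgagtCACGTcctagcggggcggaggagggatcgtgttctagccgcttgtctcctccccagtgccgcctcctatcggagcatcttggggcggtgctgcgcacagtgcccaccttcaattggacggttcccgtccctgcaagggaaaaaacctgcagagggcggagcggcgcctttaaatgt
Ldha, chr7:46845554-46845853, plus strand: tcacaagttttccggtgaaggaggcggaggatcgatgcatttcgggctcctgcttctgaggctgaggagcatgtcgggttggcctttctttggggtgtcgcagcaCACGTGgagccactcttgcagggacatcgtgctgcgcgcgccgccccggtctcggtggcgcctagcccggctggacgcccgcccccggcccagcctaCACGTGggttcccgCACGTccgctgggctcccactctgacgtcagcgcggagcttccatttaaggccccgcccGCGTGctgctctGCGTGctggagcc

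The Pfkp window held GCGTG 4 times and ACGTG not at all. The Aldoa window held ACGTG once, and the Ldha window held ACGTG 5 times and GCGTG 2 times. Of these, 4 matches to ACGTG in Ldha lie in the 2 copies of CACGTG, a palindrome that holds ACGTG on both strands. Over the 18 RefSeq windows of the 10 genes, 15 held ACGTG or GCGTG, against 43.8% of 32851 mouse windows of the same length. Some windows of 1 gene overlap, a pair in Eno1 almost wholly and a pair in Aldoa by most of their bases, and so share matches. Counted by gene, ACGTG or GCGTG was in at least 1 window of 10 of the 10, against 46.7% of 27025 genes with a window. ACGTG was in at least 1 window of 7 of the 10 genes, against 21.8% of those genes. Searched on both strands, the NF-kB consensus was in 0 of the 18 windows and in 4.51% of all windows. With 18 windows for 10 genes against 32851 for 27025, the 10 genes had more windows each in which a match could fall. The windows compared were not matched for base composition, and no enrichment was tested. These matches describe the letters only.

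The hexokinases, which phosphorylate glucose on entry, differed in pattern from each other. Hk1, the broadly expressed form, was at 307, 249 and 227 CPM in untreated WT 1 to 3 and at 282, 279 and 247 CPM in DSS-treated WT. In KO it was at 219, 223 and 230.5 CPM untreated and at 195, 203 and 213 CPM under DSS. Under DSS all 3 KO samples lay below all 3 WT samples, while the untreated groups overlapped. Its log2 difference between genotypes was -0.22 untreated (SE 0.11, adjusted p = 0.384), -0.40 under DSS (SE 0.11, adjusted p = 0.0737) and -0.31 averaged over both (SE 0.08, adjusted p = 0.0313). The averaged call held only without untreated WT 1, 2 or 3 or DSS-treated WT 3, and was lost without any other single library (adjusted p up to 0.0923).

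Hk2, the inducible hexokinase typical of proliferating cells, was at 162, 146 and 195 CPM in untreated WT and at 248, 198 and 249.8 CPM in DSS-treated WT. Each DSS-treated WT sample was above each untreated one. In KO it was at 197, 155 and 155 CPM untreated and at 199.8, 181 and 152 CPM under DSS, and these groups overlapped. The log2 change with DSS was 0.47 in WT (SE 0.15, adjusted p = 0.0837) and 0.07 in KO (SE 0.15, adjusted p = 0.883), and neither passed. The difference between these changes was -0.40 (SE 0.21, adjusted p = 0.538). The ratio of Hk2 to Hk1 in reads per kilobase ranged from 0.754 to 1.47 over the samples, with overlap between all groups.

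Of the phosphofructokinase subunits, the platelet-type Pfkp and the liver-type Pfkl were followed. Pfkp was at 415, 411 and 421 CPM in untreated WT and at 397, 391 and 415 CPM in DSS-treated WT. It was at 335, 356 and 307 CPM in untreated KO and at 289, 279.5 and 263 CPM in DSS-treated KO. The order of the group means was untreated WT, DSS-treated WT, untreated KO, DSS-treated KO, and only the WT groups overlapped. Under DSS the log2 difference between genotypes was -0.53 (SE 0.09, adjusted p = 0.00342), and this call was kept in all 6 fits without 1 library (adjusted p 0.0134 to 0.0241) and in all 6 other alternatives. The untreated difference was -0.32 (SE 0.09, adjusted p = 0.0561). The change with DSS was -0.05 in WT (SE 0.09, adjusted p = 0.846) and -0.26 in KO (SE 0.09, adjusted p = 0.124), with a difference between the changes of -0.21 (SE 0.12, adjusted p = 0.615).

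Pfkl was at 343 to 372 CPM in untreated WT, 284 to 295 in DSS-treated WT, 287 to 328 in untreated KO and 248 to 315 in DSS-treated KO. The untreated WT samples lay above those of every other group. Its log2 change with DSS in WT was -0.31 (SE 0.10, adjusted p = 0.0976), and its difference between genotypes under DSS was -0.06 (SE 0.10, adjusted p = 0.850). The ratio of Pfkp to Pfkl per kilobase was 0.556 to 0.612 in untreated WT and 0.678 to 0.699 in DSS-treated WT. In KO it was 0.509 to 0.566 untreated and 0.442 to 0.537 under DSS. DSS-treated WT stood above the other 3 groups without overlap in this ratio. The size of the ratio depends on the exon lengths used, but its order between groups does not. Pfkfb3, whose product makes an activator of phosphofructokinase, was at 5.09 to 7.72 CPM in untreated WT, 4.13 to 8.81 in DSS-treated WT, 2.32 to 4.28 in untreated KO and 4.02 to 6.97 in DSS-treated KO. Its untreated genotypes did not overlap, but its log2 difference of -0.88 had an SE of 0.40 (adjusted p = 0.313).

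**Figure D2:**
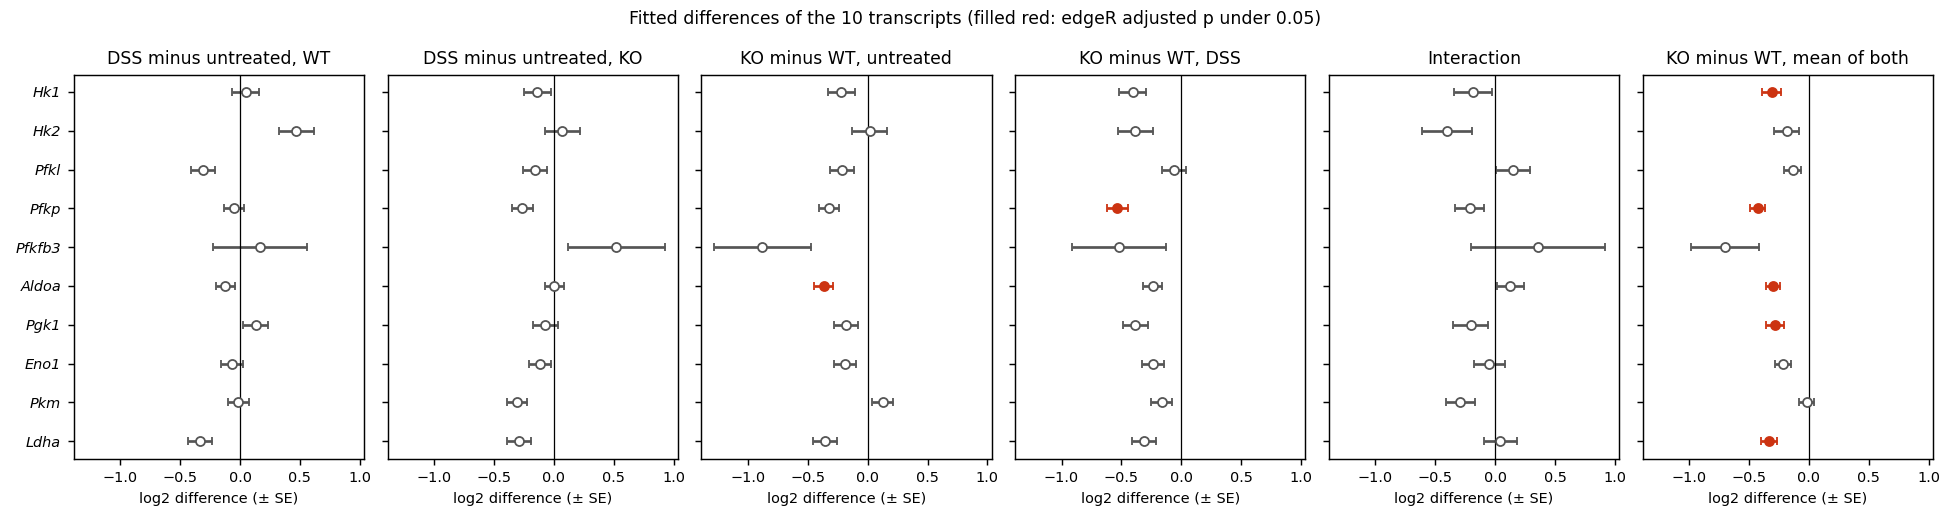
Fitted log2 differences of the 10 transcripts, with bars of 1 SE on either side, in the 5 contrasts between groups and in the genotype contrast averaged over both states. Red filled points passed at an adjusted p under 0.05: Aldoa in untreated mice, Pfkp under DSS, and 5 transcripts in the averaged contrast, all lower in KO.

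Aldoa, the aldolase of muscle and most tissues, was at 2094, 2058 and 1732 CPM in untreated WT and at 1769.7, 1851 and 1781 CPM in DSS-treated WT. In KO it was at 1523, 1554 and 1488 CPM untreated and at 1489, 1585 and 1502 CPM under DSS. The KO groups were nearly level with each other and both lay below all WT samples. The untreated log2 difference between genotypes was -0.37 (SE 0.08, adjusted p = 0.0229). This call was lost in 5 of 6 fits without 1 library, holding only without untreated WT 3, the lowest of its group (adjusted p 0.000584), and it was lost when only the groups compared were fitted (adjusted p = 0.177). Under DSS the difference was -0.24 (SE 0.08, adjusted p = 0.156). The change with DSS was -0.12 in WT (SE 0.08, adjusted p = 0.504) and 0.00 in KO (SE 0.08, adjusted p = 0.991).

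Pgk1, the first of the ATP-yielding enzymes, was at 395, 373 and 326 CPM in untreated WT and at 420, 416 and 362 CPM in DSS-treated WT. It was at 302, 357 and 307 CPM in untreated KO and at 312, 301 and 306 CPM in DSS-treated KO. All KO samples under DSS lay below all WT samples under DSS, and the untreated groups overlapped. The log2 difference between genotypes was -0.38 under DSS (SE 0.10, adjusted p = 0.0639) and -0.28 averaged over both states (SE 0.07, adjusted p = 0.0344). The averaged call held only without untreated WT 3, DSS-treated WT 3 or untreated KO 2 and was lost without any other single library (adjusted p up to 0.103). A share of 53.9% of the 50-base words of Pgk1 also occurs in other annotated genes, nearly all in the copy Pgk1-rs7. Its counts are therefore uncertain by the reads that such copies share. For Ldha this share was 9.26%, for Aldoa 6.43% and for Pfkp 5.10%. Pfkp overlaps 748 exon bases of Pitrm1, a gene on the opposite strand.

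Eno1, the main enolase, was at 965 to 1234 CPM in untreated WT, 1022 to 1091 in DSS-treated WT, 952 to 967 in untreated KO and 832 to 933 in DSS-treated KO. Its log2 difference between genotypes was -0.19 untreated (SE 0.09, adjusted p = 0.349) and -0.24 under DSS (SE 0.09, adjusted p = 0.219), and the DSS-treated groups did not overlap. For Eno1, 26.0% of the 50-base words are shared with other genes, chiefly Eno1b. Eno3, the muscle-type enolase, went the other way. It was at 151 to 243 CPM in untreated WT and 365 to 407 CPM in untreated KO, a log2 difference of 0.92 (SE 0.15, adjusted p = 0.00267). Under DSS Eno3 was at 189.7 to 213 CPM in WT and 225 to 268 CPM in KO.

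Pkm, the pyruvate kinase of most tissues other than liver, was not called in any contrast. It was at 1536, 1350.5 and 1249.7 CPM in untreated WT and at 1318, 1385 and 1389 CPM in DSS-treated WT. In KO it was at 1541, 1523 and 1453 CPM untreated and at 1237, 1272 and 1139 CPM under DSS. Untreated KO samples overlapped with the upper part of the untreated WT range, while DSS-treated KO samples lay below all DSS-treated WT samples. The log2 change with DSS was -0.02 in WT (SE 0.09, adjusted p = 0.964) and -0.31 in KO (SE 0.09, adjusted p = 0.0648). The difference between the changes was -0.29 (SE 0.12), the only one of the 10 with an unadjusted p under 0.05, and it did not pass (adjusted p = 0.395). Of the 50-base words of Pkm, 25.8% are shared with other annotated genes, 12.1% with the overlapping Gm49759. The ratio of Pkm to Pklr, the pyruvate kinase of liver and red cells, was 13.9 to 17.4 per kilobase in untreated WT and 13.03 to 15.9 in DSS-treated WT. It was 18.4 to 22.6 in untreated KO and 18.4 to 20.8 in DSS-treated KO, above all WT samples in each KO sample.

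Ldha, which converts pyruvate to lactate, was at 3998, 3357 and 2931 CPM in untreated WT and at 2688, 2645 and 2819 CPM in DSS-treated WT. It was at 2738, 2809 and 2498 CPM in untreated KO and at 2233, 2212 and 2129 CPM in DSS-treated KO. Untreated WT was highest and DSS-treated KO lowest, each without overlap with any other group, and the groups in between overlapped. The log2 change with DSS was -0.34 in WT (SE 0.10, adjusted p = 0.0587) and -0.29 in KO (SE 0.10, adjusted p = 0.132). Averaged over both genotypes, a contrast also added after the data had been seen, it was -0.31 (SE 0.07, adjusted p = 0.00981) and held in all 12 fits without 1 library. It was the only one of the 10 transcripts past the threshold in that contrast, in which 8.92% of all genes tested passed and 4.86% were lower under DSS. In that contrast 6 of 7 tested crypt and proliferation markers were also called lower and 0 higher (median log2 change -0.59). Of 8 colonocyte markers 7 were called lower and 1 higher (median -1.71), and of 13 tested leukocyte markers 6 were called higher and 0 lower (median 1.25). The part of these markers in the change of Ldha was not tested.

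The ratio of Ldha to Pkm per kilobase was 3.93, 3.76 and 3.54 in untreated WT, and lower in all other samples. It was 2.89 to 3.08 in DSS-treated WT, 2.60 to 2.79 in untreated KO and 2.63 to 2.82 in DSS-treated KO. The KO groups overlapped each other, and neither overlapped a WT group. The other lactate dehydrogenase gene, Ldhb, was scarce, at 3.86 to 6.56 CPM in untreated WT and 0.304 to 1.14 CPM in DSS-treated WT. Its log2 change of -2.84 (SE 0.74, adjusted p = 0.0317) was lost without any single library other than untreated WT 3. In KO it was at 1.90 to 4.71 CPM untreated and 0 to 0.970 under DSS. Averaged over genotypes the change was -2.72 (SE 0.53, adjusted p = 0.00381) and was kept in all 12 fits without 1 library. The size of these Ldhb changes is uncertain, as they rest on 2 to 7 counts a sample in DSS-treated WT and 0 to 7 in DSS-treated KO.

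**Figure D3:**
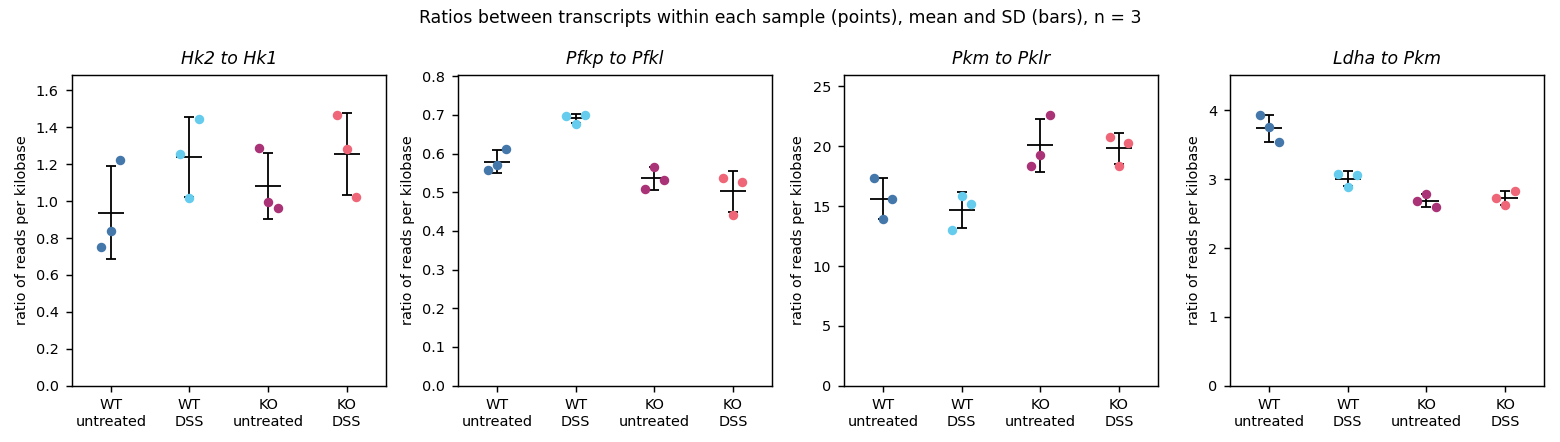
Ratios of reads per kilobase between pairs of transcripts within each sample, by group (linear axes from 0). Points are samples, horizontal bars the mean and vertical bars the SD of 3. Ldha to Pkm is highest in untreated WT (3.54 to 3.93), and Pfkp to Pfkl is highest in DSS-treated WT (0.678 to 0.699).

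Read contrast by contrast, few of the 10 transcripts passed. With DSS in WT, 0 of 10 passed the edgeR test (6.3% of all genes tested did), 3 had an unadjusted p under 0.05, and DESeq2 called 2. Hk2 was higher and Pfkl and Ldha were lower in every DSS sample than in every untreated WT sample; such a separation was seen for 10.7% of all genes on the higher side and 9.96% on the lower side. With DSS in KO, 0 of 10 passed by edgeR (3.92% of all genes), 3 had an unadjusted p under 0.05 and DESeq2 called 1. In this contrast 5 transcripts (Hk1, Pfkp, Eno1, Pkm and Ldha) were lower without overlap, as were 12.3% of all genes.

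Between untreated genotypes 1 of 10 passed, Aldoa, against 3.48% of all genes in either direction and 1.76% lower in KO. The groups did not overlap for 5 transcripts (Pfkl, Pfkp, Pfkfb3, Aldoa and Ldha), all lower in KO, as were 9.52% of all genes. Under DSS 1 of 10 passed, Pfkp, against 3.11% in either direction and 1.34% lower. Here all 10 estimates were negative, with a median of -0.35 against 0.0027 over all genes, and 7 transcripts were lower in KO without overlap, as were 10.6% of all genes. Of the difference between the DSS changes, 0 of 10 passed by edgeR or DESeq2 (1.7% of all genes passed by edgeR), and 1 had an unadjusted p under 0.05. These contrasts share samples, so their counts are not independent of each other. The p-values rest on the spread between samples within groups, estimated in 1 fit over all 12 samples, not only over the groups compared.

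The rest of the pathway was taken from a list of 24 other glycolysis genes, 19 of which were tested. Between genotypes averaged over both states, 5 were lower and 2 higher in KO, with a median log2 difference of -0.29 against 0.0037 over all genes. The lower ones included Hkdc1, a hexokinase-like gene (-0.76, SE 0.17, adjusted p = 0.0164), and Pgam1, a phosphoglycerate mutase (-0.33, SE 0.08, adjusted p = 0.0215). Gpi1, Tpi1 and Pklr were the others. The calls of Pgam1, Gpi1, Tpi1 and Pklr were each lost in 7 to 10 of the 12 fits without 1 library, and that of Hkdc1 without untreated KO 3 or DSS-treated WT 1 (adjusted p up to 0.0522). Among the higher ones was Eno3 (0.58, SE 0.10, adjusted p = 0.00382), which kept its call in all 12. Gapdh, the dehydrogenase of the middle of the pathway, ranged from 1200 to 2299 CPM and was not called (-0.32, SE 0.13, adjusted p = 0.181), and Tpi1 had -0.29 (SE 0.08, adjusted p = 0.0391).

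In the single contrasts, 3 genes of this list were called lower with DSS in WT (Hkdc1 and Ldhb among them) and 0 higher. In KO 2 were called lower (Eno3 among them) and 0 higher. Hkdc1 fell in WT from 22.3 to 37.9 CPM to 11.4 to 15.2 CPM, a log2 change of -1.13 (SE 0.24, adjusted p = 0.0102, but 0.0559 without DSS-treated WT 3). The Eno3 change in KO, -0.68 (SE 0.15, adjusted p = 0.0163), was lost in 4 of 6 fits, those without untreated KO 1 or 2 or DSS-treated KO 1 or 3 (adjusted p up to 0.0728). Between untreated genotypes Eno3 was higher and Hkdc1 lower in KO (-1.25, SE 0.24, adjusted p = 0.00847, but 0.0574 without untreated KO 3). Under DSS 1 gene was higher in KO, and Pgam1, Bpgm and Pklr were lower (log2 differences -0.51, -0.69 and -0.60). The calls of Bpgm and Pklr were lost without any single library, and that of Pgam1 without any but DSS-treated WT 3. For the difference between the DSS changes, 0 of 19 passed by edgeR.

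Glucose and lactate carriers showed little that passed, with 0 of 10 tested genes in each of the 5 single contrasts. Slc2a1, the basal glucose transporter GLUT1, was at 193 to 249 CPM in untreated WT, 158 to 188 in DSS-treated WT, 182 to 199 in untreated KO and 130.4 to 159 in DSS-treated KO. Its log2 change with DSS was -0.40 in WT (SE 0.12, adjusted p = 0.0737) and -0.40 in KO (SE 0.12, adjusted p = 0.0897). Averaged over genotypes the change was -0.40 (SE 0.09, adjusted p = 0.00826) and passed, in each of the 12 fits without 1 library as well.

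At the branch from pyruvate into mitochondria, 14 genes were tested. With DSS in WT, Pdk1 rose and Pdk3 fell, both kinases that switch off pyruvate dehydrogenase. Pdk1 went from 82.0 to 90.7 CPM to 148 to 155 CPM (log2 change 0.82, SE 0.12, adjusted p = 0.000698), and Pdk3 from 103 to 131 CPM to 69.1 to 79.1 CPM (-0.69, SE 0.13, adjusted p = 0.00380). Between untreated genotypes Pdk3 was lower in KO by -0.71 (SE 0.13, adjusted p = 0.00587), at 66.9 to 77.9 CPM. Pdk4, a further kinase of this family, was lower by -1.42 (SE 0.35, adjusted p = 0.0407), a call lost without untreated KO 2 or 3 or untreated WT 1 or 2 (adjusted p up to 0.176). None of the 14 passed with DSS in KO, between genotypes under DSS or for the difference between the DSS changes.

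Of 5 tested genes of gluconeogenesis, the reverse route, 1 passed in any single contrast. Pck1, its phosphoenolpyruvate carboxykinase, was at 88.1 to 114 CPM in untreated WT, 84.3 to 97.9 in DSS-treated WT, 91.3 to 97.4 in untreated KO and 169.7 to 192 in DSS-treated KO. It rose with DSS in KO by 0.94 (SE 0.12, adjusted p = 0.000339) and differed between genotypes under DSS by 1.01 (SE 0.12, adjusted p = 0.000197). The 8 genes of the pentose phosphate pathway gave no call in the 5 single contrasts. Its dehydrogenase Pgd was lower in KO averaged over both states (-0.34, SE 0.08, adjusted p = 0.0161).

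Of the hypoxia-response list, 20 of 21 genes were tested, and none was called higher with DSS in either genotype. Genes of the other lists were not counted here, such as Pdk1, called higher with DSS in WT, and Pdk3, called lower. In WT, 3 were called lower with DSS, and the median log2 change of the list was 0.01, beside 0.0063 over all genes. Without a call, 3 others were higher in every DSS-treated WT sample than in every untreated one, as were 10.7% of all genes. Epas1 went from 108 to 127 CPM to 147 to 168 CPM. Bnip3 went from 11.6 to 15.9 CPM to 17.7 to 19.9 CPM, and Ddit4 from 8.86 to 12.4 CPM to 14.1 to 17.4 CPM. Car12, a membrane carbonic anhydrase, fell from 134 to 154 CPM to 24.9 to 39.8 CPM (-2.16, SE 0.19, adjusted p = 5.43e-06). Ndrg1 fell by 0.68 on the log2 scale (SE 0.14, adjusted p = 0.00830, but 0.0564 without DSS-treated WT 1), and Car9, another carbonic anhydrase, by 0.44 (SE 0.10, adjusted p = 0.0184). The Car9 call was lost without untreated WT 2 or any DSS-treated WT sample (adjusted p up to 0.0979), while the change averaged over genotypes, -0.36 (SE 0.07, adjusted p = 0.00553), was kept in all 12 fits. Between untreated genotypes Car12 was lower in KO (-1.09, SE 0.19, adjusted p = 0.00386), as was Ndrg1 (-0.61, SE 0.14, adjusted p = 0.0273), whose call held only without untreated WT 3 (adjusted p up to 0.125 in the other fits).

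Hif1a, the oxygen-regulated subunit of HIF, was at 308 to 459 CPM in untreated WT and 354 to 462 in DSS-treated WT, and at 317 to 350.2 in untreated KO and 255 to 283 in DSS-treated KO. Under DSS it was lower in KO by -0.58 (SE 0.14, adjusted p = 0.0400). The call held without DSS-treated WT 2 only, and was lost without any other library of these groups (adjusted p up to 0.175). Its change with DSS in WT was 0.00 (SE 0.14, adjusted p = 0.996). HIF activity is set largely by protein stability, which was not measured here.

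**Figure D4:**
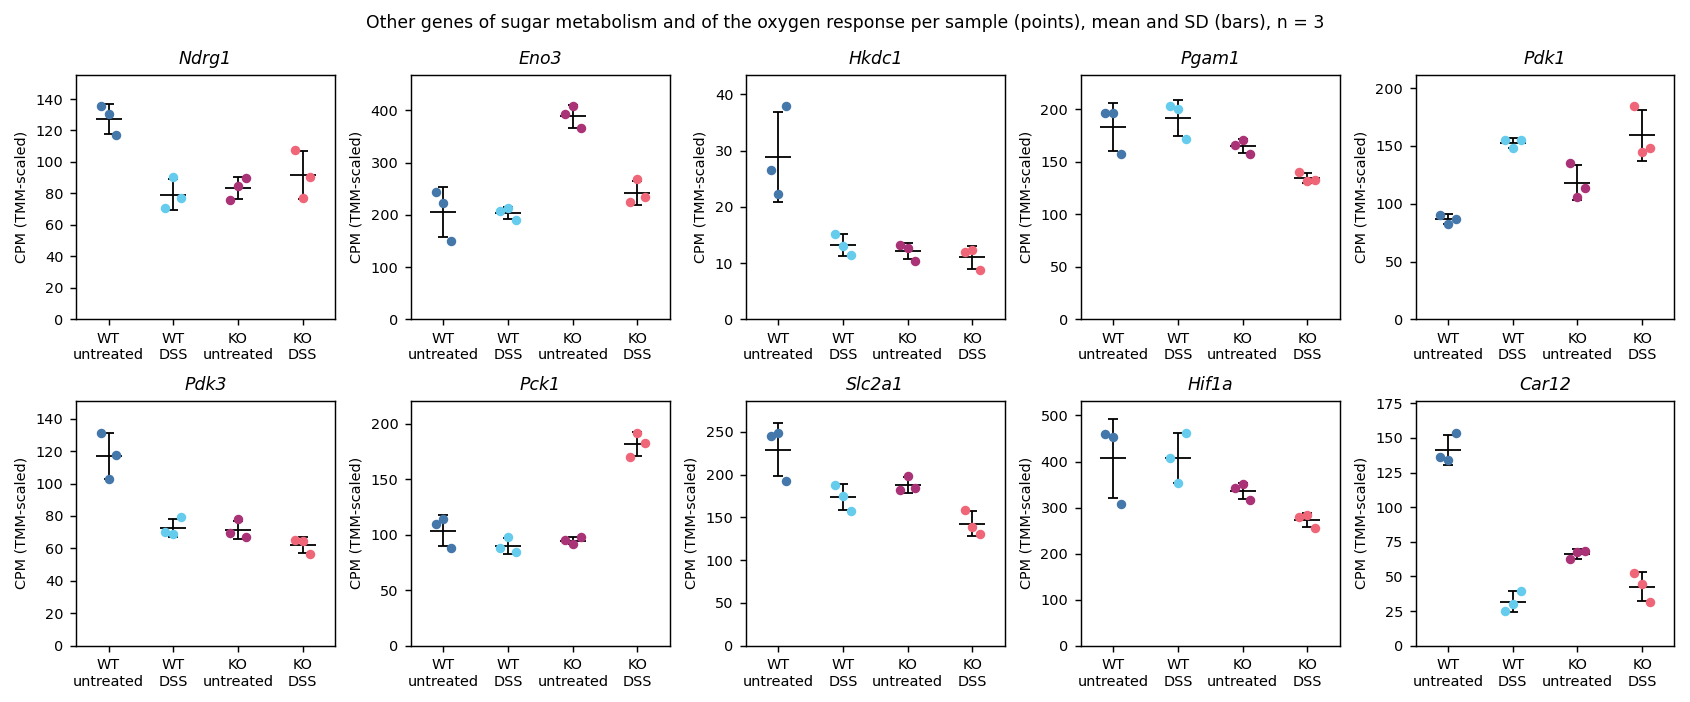
Level in CPM (TMM-scaled, linear axes from 0) of 10 other genes of sugar metabolism and the oxygen response, picked for display after their values had been seen. Points are samples, horizontal bars the mean and vertical bars the SD of 3. Pck1 stands out in DSS-treated KO (169.7 to 192 CPM) and Car12 in untreated WT (134 to 154 CPM).

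As a description, the tested genes whose log2 CPM followed each called transcript most closely over the 12 samples were listed. Pearson's r was 0.987 between Ldha and Hmgcs1. For Aldoa it was 0.955 with Mvp and 0.952 with Tmem238l, and for Pfkp 0.946 with Nlrc4 and 0.941 with Mapk1ip1l. For Hk1 it was 0.946 with Psmd2 and 0.940 with Dnajc10, and for Pgk1 0.945 with Zdhhc13 and 0.929 with Cish. These are the highest values among all such genes, over samples that share genotype, treatment and library order.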

How the data were processed

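The authors deposited whole-number counts of reads per gene, 1 table per sample, not normalized as far as the values show. STAR 2.5.2b and featureCounts 1.5.0 with GRCm38/mm10 are named in the submitters' processing notes, with no annotation release. Libraries were made by SMART-seq2 from 2 ng of total RNA (RNA integrity numbers 7.2 to 9.2), per the labels' protocols, without molecular identifiers or strand, so reads of overlapping genes cannot be separated. No row failed to name a gene.

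Of 46517 gene IDs, 46005 matched GENCODE M21 (GRCm38) without their version and 27555 with it. Genes were kept by filterByExpr (12522, with 99.8% of counts), scaled by TMM and tested by edgeR 4.0.16 in R 4.3.3 (quasi-likelihood, two-sided, 1 coefficient per group over 12 samples, Benjamini-Hochberg over all genes tested, threshold 0.05). The procedure was tested on simulated data, where it recovered sign and size but missed many of the changed genes at 3 samples a group, so that a gene not called here may still differ. A level of 3 counts is 0.370 to 0.536 CPM, which covers counting error only. Each adjusted p is edgeR's unless DESeq2 (1.42.0) is named. Levels per kilobase use the merged exons of all transcripts.

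The 10 genes, the lists and the tests were chosen with earlier results of these data known. Named were the 10 genes, of each list at most the 4 called genes with the smallest adjusted p per contrast, always Hif1a, Slc2a1, Gapdh and Tpi1, and the 2 closest followers of each called transcript among genes whose log2 CPM averaged 3 or more. Gpi1 and Pklr in the averaged contrast fall outside that limit and were named after their values were seen. So were Epas1, Bnip3 and Ddit4, which were not called. Some results that this rule selects are not reported here. Alternatives were DESeq2, its size factors in edgeR, no filter, at least 10 counts in 6 samples, only the groups compared, the replicate block and each library left out.

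Titles number the samples 1 to 3 in each group. Deviations of same-numbered samples correlated at 0.204, 0.106 and 0.127 for DSS in KO and at 0.0138, 0.120 and 0.128 for DSS in WT. Between genotypes every value was negative. The number was taken as a pairing for DSS in KO only, where every pair is above 0.1. The WT values overlap those of KO, so these correlations do not exclude a pairing in WT. Same-numbered untreated and DSS samples have consecutive library numbers in both genotypes.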

Additional observations from a re-analysis of the deposited data

Results flagged for a closer look

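The DSS change of 2 pathway genes differed between genotypes by the test of the difference itself. For Pck1 the change in KO minus that in WT was 1.14 on the log2 scale (SE 0.17, edgeR adjusted p = 0.00161). Its log2 change was 0.94 in KO, and its level was 169.7 to 192 CPM in DSS-treated KO and 84.3 to 97.9 in DSS-treated WT. For Car12 it was 1.52 (SE 0.27, adjusted p = 0.00689). Its level was 134 to 154 CPM in untreated WT and 24.9 to 39.8 in DSS-treated WT, and 62.3 to 68.4 and 31.5 to 52.2 CPM in untreated and DSS-treated KO. Both calls were kept in all 12 fits without 1 library. The levels of colonocyte, goblet cell and leukocyte markers also differed between these groups, and their part in these values was not tested.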

How the results depend on the processing

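The counts of the 10 transcripts past the threshold depended on the setting. DSS in WT gave 0 mainly, 2 by DESeq2, 2 with no filter and 0 to 2 with 1 library left out (2 without untreated WT 3). DSS in KO gave 0, with 1 by DESeq2, 2 with no filter, 2 with only the groups compared and 0 throughout with 1 library left out. Untreated genotypes gave 1, with 2 by size factors, 3 by DESeq2, 2 with no filter, 0 with only the groups compared and 0 to 2 with 1 library left out. Genotypes under DSS gave 1, with 3 by DESeq2, 2 with no filter, 5 with only the groups compared and 1 throughout with 1 library left out. The averaged genotype contrast gave 5, and 3 to 6 with 1 library left out, 3 without untreated KO 1 or 3, any DSS-treated KO sample or DSS-treated WT 1 or 2. The averaged DSS contrast gave 1, with 2 by DESeq2 and 1 to 3 with 1 library left out (2 without DSS-treated KO 2, 3 without untreated WT 3). The cause was not tested.

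With the replicate number as a block, the counts were 0, 0, 1 and 1 for the single contrasts in this order, 0 for the difference between the DSS changes, 4 for the averaged genotype contrast (Hk1 lost) and 1 for averaged DSS. For DSS in KO, where the number was taken as a pairing, the block changed no call of the 10 transcripts. For DSS in WT a pairing is not excluded, and same-numbered samples have consecutive library numbers there as in KO. There the block ended the call of Ldhb. Between genotypes it ended the calls of Pdk4 and Ndrg1 (untreated) and of Pklr and Hif1a (under DSS). In the averaged genotype contrast it ended those of Gpi1, Tpi1, Pdk4 and Hk1. With only the groups compared, the calls of Car9 (DSS in WT) and of Pdk4 and Ndrg1 (untreated genotypes) were lost.

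Signs turned only for values near 0, none of them called. With no filter the Aldoa change with DSS in KO was -0.010. With 1 library left out, the ranges that crossed 0 for DSS in WT were -0.046 to 0.17 (Hk1), -0.0032 to 0.45 (Pfkfb3), -0.15 to 0.023 (Eno1) and -0.084 to 0.063 (Pkm). For DSS in KO they were -0.023 to 0.19 (Hk2), -0.031 to 0.018 (Aldoa) and -0.12 to 0.0055 (Pgk1). Between genotypes they were -0.11 to 0.14 (Hk2, untreated), -0.17 to 0.013 (Pfkl, under DSS) and -0.052 to 0.018 (Pkm, averaged). For the difference between DSS changes they were -0.14 to 0.033 (Eno1) and -0.082 to 0.14 (Ldha), and for averaged DSS -0.094 to 0.013 (Hk1) and -0.011 to 0.067 (Pgk1). No setting moved the median of all genes beyond -0.04 to 0.03. The counts of Pfkfb3 (19 to 58 a sample) limit its precision.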
